A study of Mus musculus with 32 samples.

Results

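Interferon-stimulated genes are the genes that a cell turns on when it senses interferon, and 38 of them, listed by name, were followed here in mouse islets through sorted β cells, ECs (endothelial cells), and MΦs (macrophages). All 38 stand in the deposited table of 22850 genes, and all 38 passed the filter on low values in each fit. The members were listed by name, by a rule that uses no measured value, but they were chosen with earlier results of these data known. The cells came from βVEGF-A; MIP-GFP mice, in which the rat insulin promoter drives the doxycycline (Dox) dependent activator in β cells, the activator switches on human VEGF-A, and the mouse insulin promoter marks β cells with GFP. No Dox mice carried the same transgenes and were left untreated, 1wk Dox mice received Dox for 1 week, and 1wk WD mice were sampled 1 week after its withdrawal (WD). In the order of these time points there were 4, 5, and 3 β cell samples, 4, 1, and 5 EC samples, and 4, 2, and 4 MΦ samples, and the islets of several mice were pooled for each. For ECs and MΦs at 1wk Dox the paper describes more replicates than the labelled samples used here. Sorting took GFP for β cells, leaving out those with CD31 or CD11b, CD31 for ECs, and CD11b for MΦs.

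Type I interferons bind a receptor that activates JAK kinases, and a complex that holds STAT2 and IRF9 then binds the interferon-stimulated response element (ISRE). Type II interferon acts at the gamma-activated site (GAS). The genes switched on include antiviral effectors, sensors of foreign nucleic acid, subunits of the immunoproteasome, and the inhibitors that end the response, and in islets they are known above all from work on type 1 diabetes.

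Promoters of 30 of the 38 members were found in RefSeq (build GRCm38.p6), each covering 250 bases before to 50 after the start of transcription. The ISRE core was searched as TTTCNNTTTC on both strands, so that its reverse reads GAAANNGAAA, and was found in 15 of these 30 members, against 3.99% of the 27025 genes with a promoter there. It began between 24 and 222 bases before the start in 12 members and after the start in 3, and 7 members held more than 1 match. The GAS core TTCNNNGAA, which reads the same on both strands, was found in 7 members (23.3%) against 9.55% of genes, and 3 members held both motifs. These are matches of letters in a window, not measured binding. The stretches around the ISRE core are shown for the members with matches before the start, on the strand of the gene, with the bases of a match in capitals and up to 8 bases on each side:
Gbp2, chr3:142620596-142620621, plus strand: tcttttagTTTCACTTTCactgtctt
Bst2, chr8:71537585-71537610, minus strand: cattccagGAAAATGAAACTGAAAgg
Rsad2, chr12:26456555-26456580, minus strand: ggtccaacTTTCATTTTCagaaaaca
Isg15, chr4:156200873-156200898, minus strand: agGAAAAGGAAACCGAAACAGAAAat
Ifit1, chr19:34640796-34640821, plus strand: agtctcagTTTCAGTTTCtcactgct
Ifit3, chr19:34583399-34583424, plus strand: taagtctgTTTCAGTTTCtactttcc
Oas3, chr5:120777717-120777742, minus strand: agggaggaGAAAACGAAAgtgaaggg
Stat2, chr10:128270268-128270293, plus strand: caccctggTTTCAGTTTCctttccct
Gbp3, chr3:142559991-142560016, plus strand: ggacacagTTTCAGTTTCTATTTCcc
Irgm1, chr11:48871433-48871458, minus strand: tgtttcaaGAAATAGAAACCGAAAct
Igtp, chr11:58199514-58199539, plus strand: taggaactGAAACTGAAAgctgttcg
Socs1, chr16:10785602-10785627, minus strand: acttgccgGAAAGAGAAACCGAAAgc

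*Isg15* held 3 overlapping matches, and *Bst2*, *Gbp3*, *Irgm1*, and *Socs1* held 2 overlapping matches each. For 3 members on which the results below turn, *Gbp2* and *Bst2* in MΦs and *Rsad2* in ECs, the whole 250 bases before the start are given, again with the ISRE core in capitals:
Gbp2, chr3:142620413-142620662, plus strand: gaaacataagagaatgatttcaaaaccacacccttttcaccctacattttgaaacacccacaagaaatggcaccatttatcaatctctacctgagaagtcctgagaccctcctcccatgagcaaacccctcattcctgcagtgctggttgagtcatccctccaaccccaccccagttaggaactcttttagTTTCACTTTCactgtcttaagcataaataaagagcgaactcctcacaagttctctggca
Bst2, chr8:71537473-71537722, minus strand: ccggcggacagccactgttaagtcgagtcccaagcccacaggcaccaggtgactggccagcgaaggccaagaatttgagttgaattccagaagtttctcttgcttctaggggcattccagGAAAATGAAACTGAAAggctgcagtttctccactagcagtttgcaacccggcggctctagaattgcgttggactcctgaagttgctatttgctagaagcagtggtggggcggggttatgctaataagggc
Rsad2, chr12:26456453-26456702, minus strand: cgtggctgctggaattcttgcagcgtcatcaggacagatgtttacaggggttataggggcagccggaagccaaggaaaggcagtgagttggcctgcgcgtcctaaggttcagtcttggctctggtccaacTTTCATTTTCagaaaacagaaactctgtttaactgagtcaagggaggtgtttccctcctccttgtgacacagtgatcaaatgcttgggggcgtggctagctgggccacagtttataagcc

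Neither motif was found in the window of *Irf7*, only the GAS core was found in that of *Psmb8*, and no promoter was matched for *Dhx58*.

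The sorted cells carried the markers of their labels. Over 7 β cell markers the summed score, the authors' normalized expression value, ran from 496625 to 10852666 in β cells against 350 to 45506 in the other samples. Over 8 EC markers it ran from 393853 to 636672 in ECs and did not pass 55274 elsewhere, and over the 7 MΦ markers matched it ran from 178523 to 333620 in MΦs and did not pass 6199 elsewhere. Markers of other cells were present too: the 4 acinar markers summed to 4490995 and 2725785 in No Dox β cell replicates 3 and 4 and to 3607482 in No Dox MΦ replicate 2, and the 4 stromal markers reached 172248 in β cells. In sorted bulk samples a lower score can mean fewer cells that express a gene or less RNA per cell, and these cannot be told apart.

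**Figure D1:**
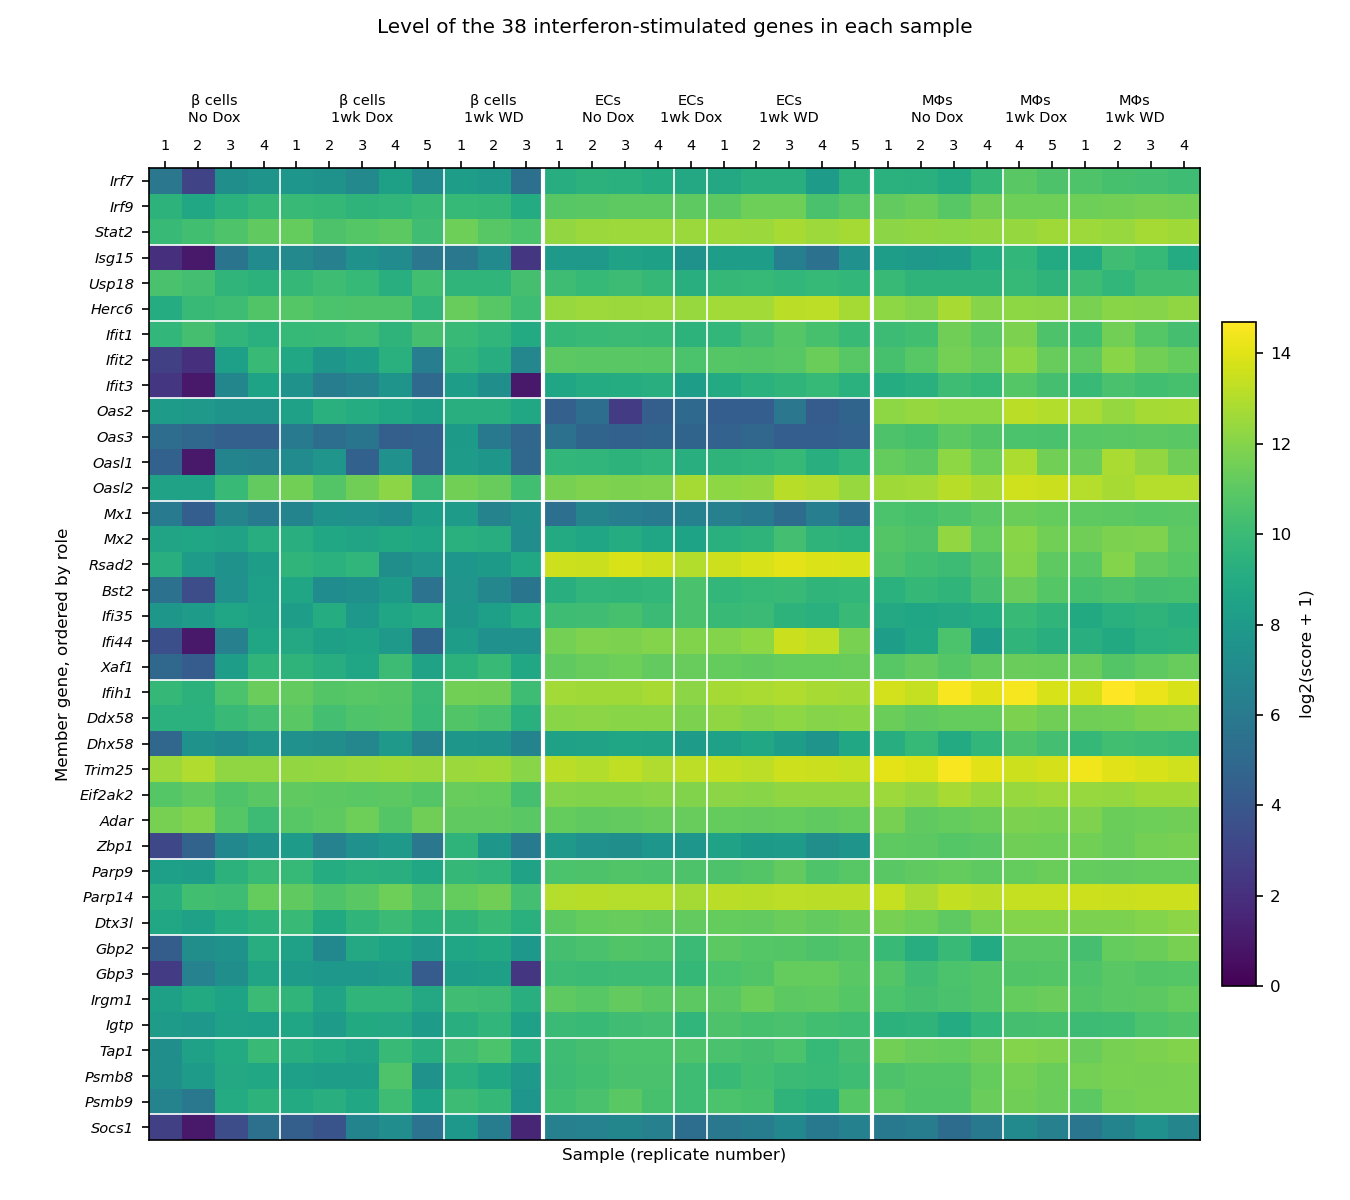
Heat map of log2(score + 1) for the 38 members (rows, ordered by role) in each of the 32 samples (columns, by replicate number), with white lines between groups. MΦs are brightest across most rows, *Oas2*, *Oas3*, and *Mx1* are dark in ECs, and several members are near the lowest score of 1 in No Dox β cell replicates 1 and 2.

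The level of the list differed between the cell types before any Dox. The mean of log2(score + 1) over the 38 members was 10.81 ± 0.12 (SD, n = 4) in No Dox MΦs, 10.17 ± 0.04 (n = 4) in ECs, and 7.86 ± 0.99 (n = 4) in β cells. MΦ samples ran from 10.67 to 10.91, EC samples from 10.11 to 10.202, and β cell samples from 6.97 to 9.002, so the groups did not overlap. A gene was called where limma gave a difference of at least 2-fold with a p-value under 0.05 after Benjamini-Hochberg adjustment over all genes tested. Against β cells, 34 of 38 members were called higher in MΦs and 0 lower, with a median log2 difference of 2.64. Of all 16380 genes, 19.7% were called higher and 23.5% lower, with a median of -0.12. In ECs against β cells 30 members were called higher and 1 lower (median 2.14), against 16.5% and 21.2% of all genes (median -0.07). With No Dox β cell replicates 1 and 2 alone as the β cell group, 34 members were called in MΦs against β cells and 31 in ECs against β cells, and with replicates 3 and 4 alone 33 and 28, a choice made after seeing the data. The medians moved more, to 3.50 and 2.68 with replicates 1 and 2 and to 1.92 and 1.63 with replicates 3 and 4.

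Between MΦs and ECs, 7 members were called higher in MΦs and 2 higher in ECs, against 17.6% and 15.9% of all genes. The median difference over the members was 0.27.

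The OAS family makes or resembles the enzymes that sense double-stranded RNA and activate RNase L. *Oas2* scored 4745, 5278, 4642, and 4719 in No Dox MΦs, 265, 239, 197, and 196 in β cells, and 22, 38, 5, and 21 in ECs. These groups did not overlap, and *Oas2* was the member called lower in ECs than in β cells (log2 difference -3.59 ± 0.46 SE, adjusted p = 5.93e-05). *Oas3* scored between 1390 and 2028 in MΦs and between 22 and 44 in both other cell types, a log2 difference of 5.80 ± 0.34 from ECs (adjusted p = 8.10e-08). The OAS-like genes *Oasl1* and *Oasl2* scored 737 to 860 and 3273 to 3770 in ECs.

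Among the antiviral effectors the order of cell types differed by gene. *Mx1*, a gene of the Mx GTPase family, scored 1496, 1383, 1596, and 1935 in MΦs and 41, 103, 76, and 69 in ECs, where it was within the spread of β cells (20 to 103). *Mx2* also was called higher in MΦs than in ECs (log2 difference 2.39 ± 0.33, adjusted p = 9.26e-05). *Rsad2* encodes viperin, an enzyme that makes a chain-terminating nucleotide, and it went the other way, with 12413, 11937, 14089, and 12157 in ECs and 1535, 1206, 1070, and 1555 in MΦs. Its log2 difference of MΦs minus ECs was -3.25 ± 0.30 (adjusted p = 3.23e-06), and in β cells it scored 179 to 608. *Ifi35* was called higher in ECs as well (MΦs minus ECs -1.30 ± 0.21, adjusted p = 0.000298). *Ifi44* scored 3114 to 4064 in ECs and 304 to 1484 in MΦs, groups that did not overlap, yet its difference of -2.85 ± 1.27 had an adjusted p of 0.0919. The fit shares its spread over all 3 cell types, and *Ifi44* spread widely in β cells, at 11, 1, 85, and 397.

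Of the 7 sensors and RNA-binding proteins, 3 were called higher in MΦs than in ECs. *Ifih1*, which encodes the double-stranded RNA sensor MDA5, scored 10761 to 24073 in MΦs and 6143 to 6939 in ECs (log2 difference 1.28 ± 0.36, adjusted p = 0.0127). *Zbp1*, a sensor of Z-form nucleic acid that can start necroptosis, scored 1772 to 2127 in MΦs, 159 to 235 in ECs, and 8, 25, 113, and 181 in β cells. *Trim25*, a ubiquitin ligase, differed by 1.00 ± 0.19 (adjusted p = 0.000949). *Ddx58*, the sensor RIG-I, had the opposite sign at -0.87 ± 0.19 and an adjusted p of 0.00253, under 2-fold.

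No member of the other roles was called between MΦs and ECs. The transcription factor *Irf7* scored 511 to 872 in MΦs and 547 to 684 in ECs, and *Isg15*, a ubiquitin-like modifier, scored 250 to 520 and 244 to 350. *Stat2* scored 4435 to 5066 in MΦs and 5106 to 6074 in ECs, groups that did not overlap, at a log2 difference of -0.25 ± 0.20 (adjusted p = 0.348). *Psmb8*, an immunoproteasome subunit, scored 1526 to 2362 in MΦs and 1077 to 1433 in ECs (0.51 ± 0.31, adjusted p = 0.217), and *Socs1*, an inhibitor of JAK kinases, 35 to 74 and 83 to 105. *Usp18*, which removes ISG15 from proteins, did not pass the test in any of the 3 cell type comparisons, and scored 707 to 1396 in β cells, 896 to 1100 in ECs, and 740 to 957 in MΦs.

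**Figure D2:**
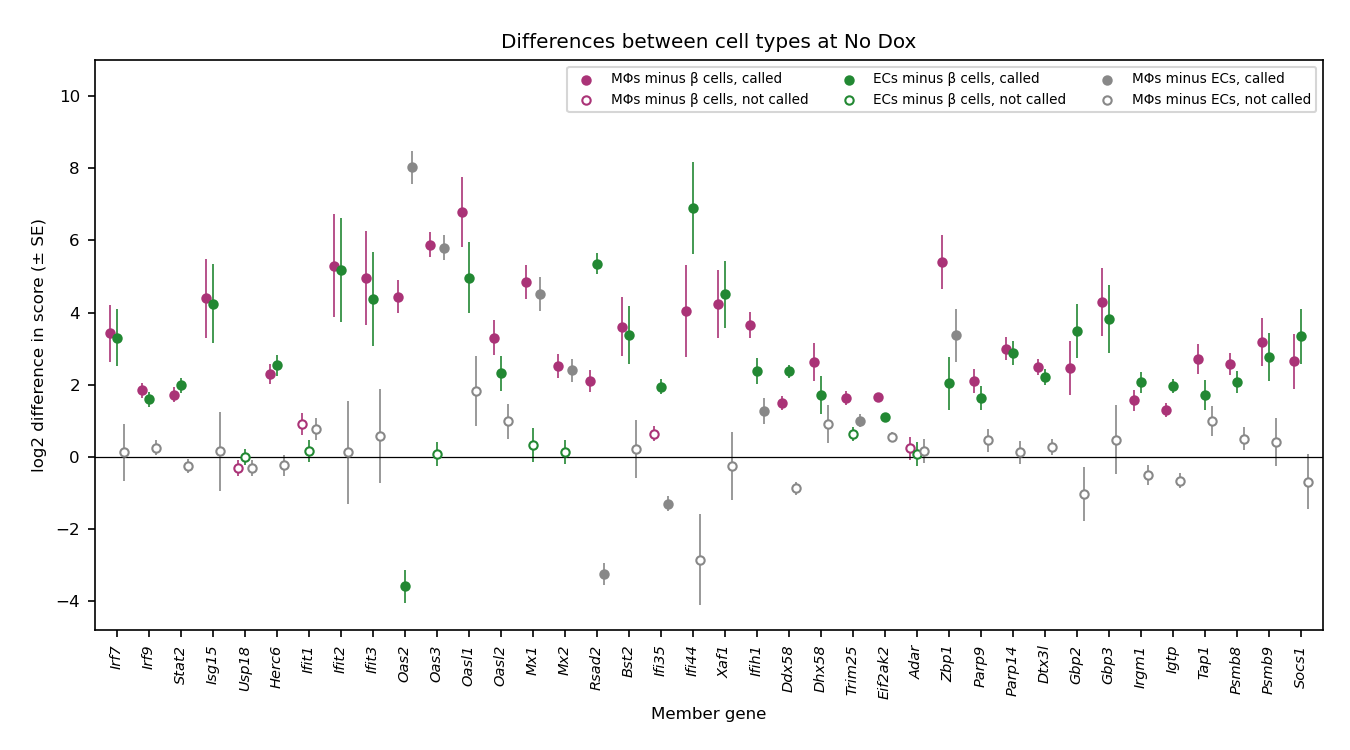
Log2 difference in score (± SE) at No Dox for each member, for MΦs minus β cells, ECs minus β cells, and MΦs minus ECs, with filled points for called differences. Most points of the first and second comparison lie above 0, *Oas2* in ECs minus β cells lies at -3.59, and MΦs minus ECs spreads from -3.25 for *Rsad2* to 8.03 for *Oas2*.

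In MΦs, 4 of 38 members were called higher at 1wk Dox, the time of VEGF-A induction, and 1 at 1wk WD, each against No Dox. At 1wk Dox 34 of 38 members had a higher mean and 22 lay with both samples above the 4 No Dox samples, against 16.2% of all 15014 genes. The median log2 difference was 0.51 over the members and 0.03 over all genes. Of the members, 4 were called higher and 0 lower, against 1.61% and 0.653% of all genes, and 10 had an adjusted p under 0.05 with a rise of any size, against 2.70%. At 1wk WD 35 members had a higher mean, 12 lay with all 4 samples above No Dox (4.98% of all genes), and the median was 0.41. There 1 member was called higher and 0 lower, against 0.420% and 0.206%, and 5 had an adjusted p under 0.05 with a rise of any size, against 0.793%. Both comparisons share the No Dox samples.

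*Irf7*, the factor that amplifies type I interferon production and lies on chromosome 7 (148448605 to 148452380, minus strand, mm9), scored 671, 647, 511, and 872 in No Dox MΦs. It scored 1995 and 1514 at 1wk Dox, then 1584, 1370, 1262, and 1123 at 1wk WD. Both later groups lay above No Dox without overlap. *Irf7* rose 2.62-fold at 1wk Dox (log2 1.39 ± 0.23, adjusted p = 0.0101), and at 1wk WD its log2 difference of 1.00 ± 0.19 had an adjusted p of 0.0286, just under 2-fold. Its exons overlap those of *Phrf1* on the other strand, and the counting is not stated to use strand, so reads of the 2 genes cannot be told apart there.

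*Gbp2*, a guanylate-binding GTPase that acts against pathogens in vacuoles, lies on chromosome 3. It was the member called at both times. Its scores were 1003, 578, 971, and 499 at No Dox, 1955 and 1965 at 1wk Dox, then 1304, 2375, 2671, and 3225 at 1wk WD, with no overlap between No Dox and either later group. The log2 difference was 1.43 ± 0.35 at 1wk Dox (adjusted p = 0.0387) and 1.64 ± 0.29 at 1wk WD (adjusted p = 0.0229). Guanylate-binding proteins form a family of close copies, so part of the reads may have been assigned among them.

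*Bst2* encodes tetherin, which holds budding viruses at the cell surface. It scored 675, 894, 787, and 1303 at No Dox, 2602 and 1841 at 1wk Dox, then 1378, 1547, 1312, and 1350 at 1wk WD. The 1wk Dox rise was 2.47-fold (log2 1.30 ± 0.24, adjusted p = 0.0140), while the 1wk WD samples lay just above the highest No Dox sample (0.65 ± 0.20, adjusted p = 0.117). *Dhx58*, the RNA sensor LGP2, scored 576, 920, 509, and 844, then 1620 and 1239, then 891, 1213, 1108, and 1024. It rose 2.05-fold at 1wk Dox (1.04 ± 0.26, adjusted p = 0.0401), and its 1wk WD samples overlapped No Dox. Exons of *Dhx58* overlap those of *Gm11547* on the other strand, with the same limit on reads as for *Irf7*.

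The calls at 1wk Dox rest on 2 samples. Without replicate 4 or without replicate 5, which leaves 1 sample assumed to vary like the others, 0 members were called. The log2 difference of *Irf7* was then 1.19 or 1.59, and that of *Gbp2* 1.43 or 1.42. With only the No Dox and 1wk Dox samples in the fit, or with no trend of the spread on expression, 0 members were called as well, and with no minimum mean score *Gbp2* and *Dhx58* lost their call. The 1wk Dox call of *Gbp2* was also lost without No Dox replicate 2 or 4 or 1wk WD replicate 2 or 3, at adjusted p of 0.0529 to 0.0652. The call of *Dhx58* was kept in 8 of 19 alternatives (log2 0.84 to 1.23, adjusted p = 0.0210 to 0.580). It was lost without No Dox replicate 1 or 3 or 1wk WD replicate 2, 3, or 4 as well, at 0.89 to 1.04 on the log2 scale. At 1wk WD the call of *Gbp2* was lost without 1wk WD replicate 2, 3, or 4, or without 1wk Dox replicate 4 (adjusted p = 0.0591 to 0.0887), and with no minimum mean score or no trend (adjusted p = 0.0508 and 0.118).

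**Figure D3:**
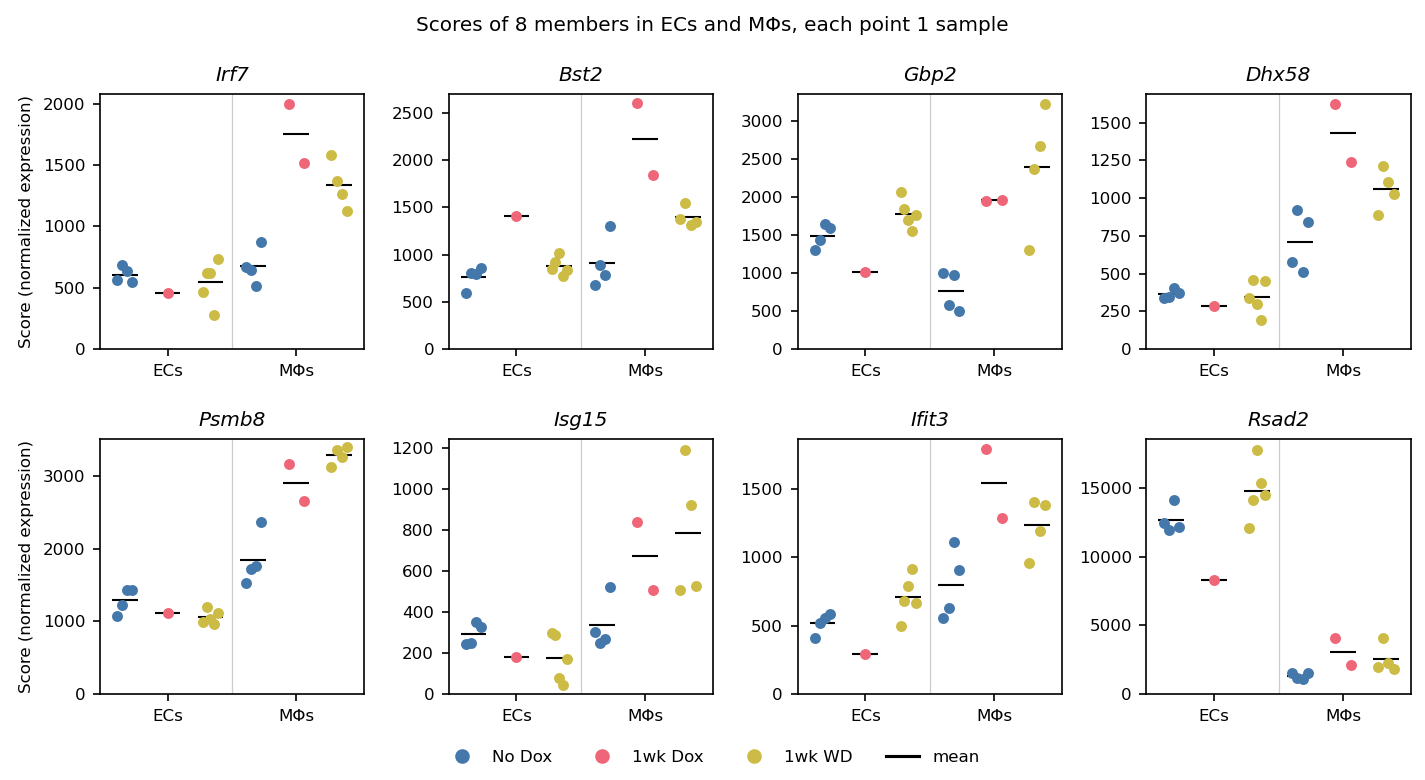
Scores (normalized expression, linear axis from 0) of 8 members in ECs and MΦs, each point 1 sample colored by time point, with a line at the group mean. In MΦs the *Irf7* points move from 511 to 872 at No Dox to 1514 and 1995 at 1wk Dox, while *Rsad2* in ECs sits far above MΦs at each time point.

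A further 6 members rose in MΦs at 1wk Dox by less than 2-fold. *Oas2* scored 9084 and 8126 at 1wk Dox against 4642 to 5278 at No Dox (log2 0.83 ± 0.15, adjusted p = 0.0125). *Oasl2* scored 12923 and 11900 against 6287 to 8978 (0.81 ± 0.16, adjusted p = 0.0192), *Mx1* 2693 and 2353 against 1383 to 1935 (0.66 ± 0.16, adjusted p = 0.0387), and *Irgm1*, an immunity-related GTPase of autophagy, 2391 and 2619 against 1325 to 1645 (0.77 ± 0.16, adjusted p = 0.0228). *Igtp*, another immunity-related GTPase, and *Psmb8* completed the 10, at 0.94 ± 0.23 (adjusted p = 0.0392) and 0.67 ± 0.17 (adjusted p = 0.0458). None of these 6 groups overlapped No Dox.

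At 1wk WD the 5 members with an adjusted p under 0.05 were *Gbp2*, *Irf7*, *Psmb8*, *Igtp*, and *Zbp1*. *Psmb8* scored 3125, 3358, 3266, and 3394 against 1526, 1722, 1767, and 2362 at No Dox (log2 0.85 ± 0.14, adjusted p = 0.0181), a tight group above No Dox. *Zbp1* scored 3033, 2604, 3200, and 3319 against 1772 to 2127 (0.61 ± 0.12, adjusted p = 0.0334). *Igtp* scored 1056 to 1652 against 534 to 836 (0.90 ± 0.19, adjusted p = 0.0413).

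Other well-known members had large differences that did not pass the test. *Isg15* scored 304, 250, 269, and 520 at No Dox, 841 and 508 at 1wk Dox, then 506, 1188, 923, and 525 at 1wk WD, and both later groups overlapped No Dox through its replicate 4. Its log2 difference was 1.02 ± 0.40 at 1wk Dox (adjusted p = 0.164) and 1.19 ± 0.33 at 1wk WD (adjusted p = 0.0913). *Rsad2* scored 4083 and 2115, then 1978, 4068, 2282, and 1866, all above the No Dox range of 1070 to 1555, at adjusted p of 0.0607 and 0.115. *Ifit3*, which binds RNA lacking self marks with its partners, scored 1793 and 1291 at 1wk Dox against 558 to 1109 (0.98 ± 0.28, adjusted p = 0.0651).

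*Ifit1* and *Ifit2* overlapped No Dox at both times, with 1wk Dox differences of 0.50 ± 0.45 (adjusted p = 0.569) and 0.68 ± 0.34 (adjusted p = 0.281). The MΦ samples within a time point were far apart for *Ifit1*, from 1070 to 2878 at No Dox and from 1195 to 3039 at 1wk WD. *Ifi44* was led by 1 No Dox sample of 1484 against 304 to 438 in the other 3. *Stat2* differed by 0.27 ± 0.14 and 0.36 ± 0.11 (adjusted p = 0.290 and 0.131), *Socs1* by 0.86 ± 0.55 and 0.81 ± 0.45 (adjusted p = 0.402 and 0.375), and *Usp18* by 0.05 ± 0.21 and 0.44 ± 0.17 (adjusted p = 0.915 and 0.206). The lowest differences at 1wk Dox belonged to *Trim25* (-0.46 ± 0.22, adjusted p = 0.259) and *Oas3* (-0.17 ± 0.16, adjusted p = 0.603).

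Between 1wk WD and 1wk Dox 0 MΦ members were called with limma, against 0.0866% of all genes, and 24 of 38 had a lower mean at 1wk WD (median -0.12, all genes -0.03). At an unadjusted p under 0.05, 1 member was higher and 3 were lower, against 4.78% and 4.92% of all genes.

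Markers moved with these groups. The summed score of the MΦ markers ran from 178523 to 239804 at No Dox, 250075 to 311897 at 1wk Dox, then 260192 to 333620 at 1wk WD. The 4 acinar markers ran from 14298 to 3607482 at No Dox against 362 to 1292 and 463 to 69003. The 3 markers of plasmacytoid dendritic cells, which are strong interferon producers, ran from 2433 to 3406, then 1207 to 1266, then 1559 to 2473, and none was at 1 in every sample of a group. The 3 conventional dendritic cell markers summed to 5637 and 6349 at 1wk Dox against 9047 to 12574 at No Dox, the 3 monocyte markers to 16501 and 18901 against 18968 to 26282, and the 8 EC markers to 3402 and 4165 against 1746 to 2427, each without overlap. At 1wk WD these lists overlapped No Dox. The part of these markers in the result was not tested. Without No Dox replicate 2, the sample with the most acinar transcripts, 3 members were called at 1wk Dox, then 1 at 1wk WD.

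**Figure D4:**
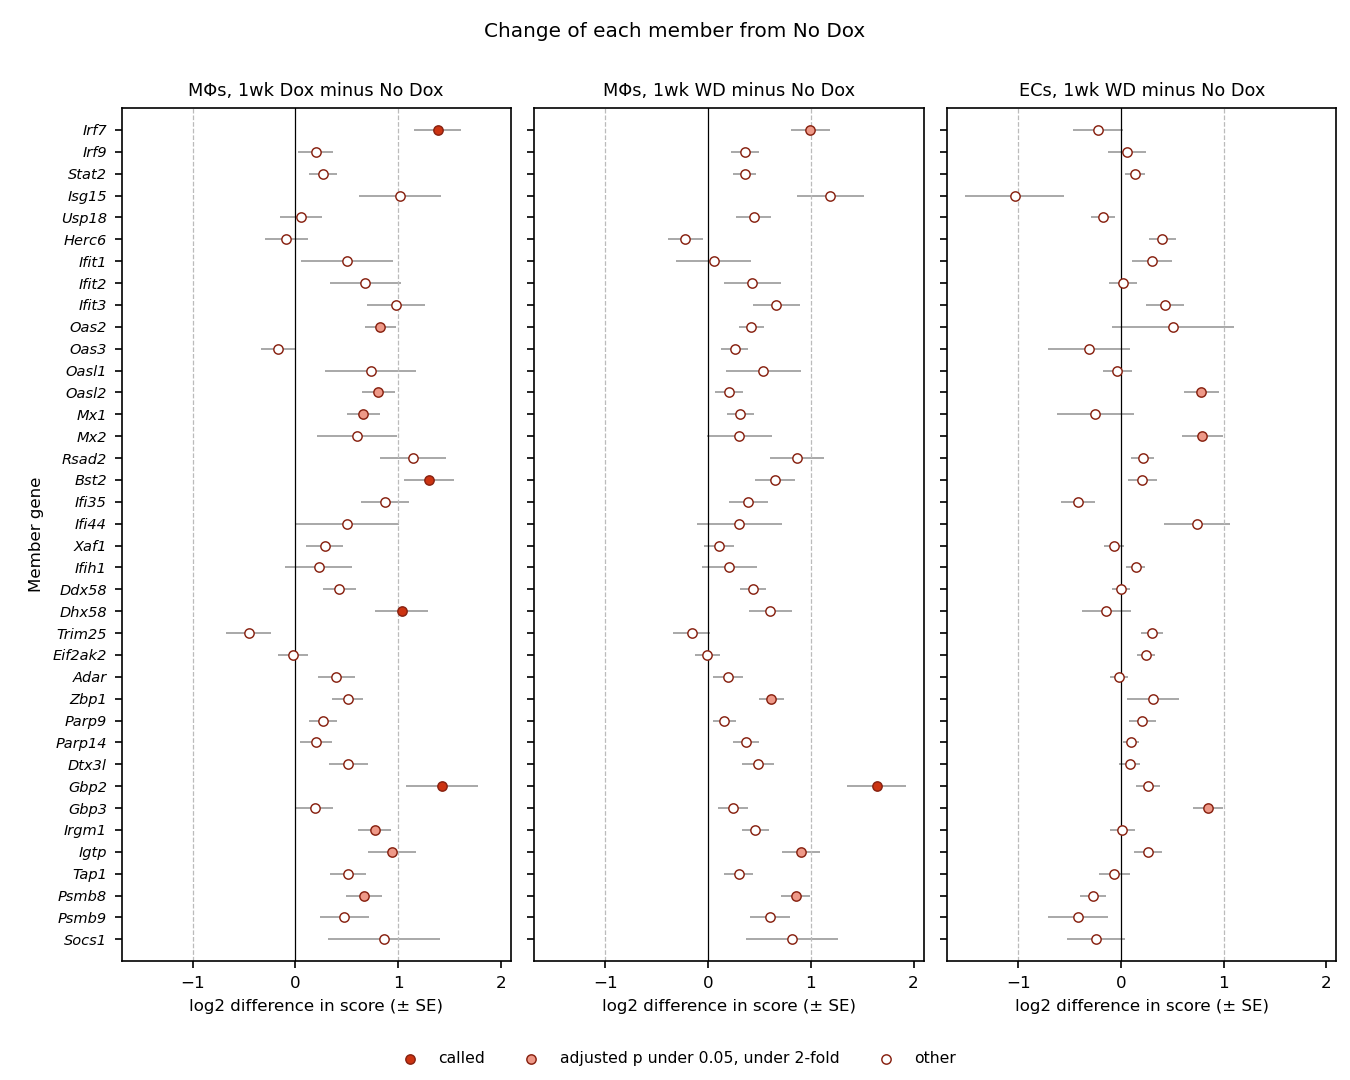
Log2 difference in score from No Dox (± SE) for each of the 38 members in MΦs at 1wk Dox, MΦs at 1wk WD, and ECs at 1wk WD, with dark points for called members, light points for an adjusted p under 0.05 at less than 2-fold, and dashed lines at 2-fold. Most MΦ points lie right of 0 in both MΦ panels, whereas EC points lie on both sides.

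In ECs at 1wk WD 0 members were called with limma in either direction, where 1.28% and 0.487% of all 14167 genes were called higher and lower. Of the 38 members 24 had a higher mean, with a median log2 difference of 0.09 (all genes 0.00), and 9 members were higher and 2 lower at an unadjusted p under 0.05, against 11.7% and 10.2% of all genes. An adjusted p under 0.05 with a rise of any size was found for 3 members, against 2.28% of all genes. In 5 members all 5 samples lay above No Dox, against 5.75%.

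The 3 members were *Gbp3*, *Oasl2*, and *Mx2*. *Gbp3* scored 1086, 1042, 1061, and 1090 at No Dox and 1458, 1702, 2364, 2347, and 1924 at 1wk WD (log2 0.85 ± 0.15, adjusted p = 0.0113). *Oasl2* scored 3273 to 3770 and then 4625, 5035, 8731, 7850, and 5533 (0.78 ± 0.17, adjusted p = 0.0272), and *Mx2* 393 to 549 and then 637, 751, 1265, 745, and 683 (0.79 ± 0.20, adjusted p = 0.0488). In each the later samples lay above No Dox. In the same samples the 8 EC markers summed to 393853 to 463753 against 535884 to 568394 at No Dox, without overlap, and the 4 stromal markers to 1116 to 5563 against 531 to 1417, with overlap. The 4 acinar markers summed to 107 to 313 in replicates 2 to 5 and 22948 in replicate 1, against 18059 to 579351 at No Dox. The 7 matched MΦ markers summed to 3612 to 5354 against 5373 to 6199, and the 3 conventional dendritic cell markers to 8677 to 10416 against 11406 to 13802, both without overlap. The last list cannot be read as dendritic cells in ECs, since its No Dox median was 12209.5 there against 10120.5 in MΦs. The part of these marker lists in these differences was not tested.

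Replicates 3 and 4 of the 1wk WD ECs stood apart in several members in both directions. *Ifi44* scored 11800 and 10070 there against 3964, 4708, and 3475 in the other 3, and *Herc6*, an ISG15 ligase, 9248 and 9587 against 6498 to 6765. *Isg15* itself was low in the same samples, at 79 and 46 against 299, 290, and 170, and *Psmb9*, an immunoproteasome subunit, was at 744 and 596 against 1381 to 1783. Over the group *Isg15* differed from No Dox (244 to 350) by -1.04 ± 0.48 (adjusted p = 0.233). With replicates 1, 2, and 5 alone, a choice made after seeing the data, 0 members were called.

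The difference between MΦs and ECs in their change from No Dox to 1wk WD was tested directly. The MΦ change exceeded the EC change in 28 of 38 members, with a median of 0.38 on the log2 scale (all genes -0.01), and 2 members were called higher and 0 lower, against 0.609% and 0.795% of 15603 genes. *Psmb8* scored 998, 1201, 1028, 972, and 1115 in 1wk WD ECs against 1077 to 1433 at No Dox, so its change was -0.27 ± 0.13 in ECs and 0.85 ± 0.14 in MΦs, a difference of 1.13 ± 0.19 (adjusted p = 0.00555). This call was kept in all 26 alternatives fitted, with differences from 1.04 to 1.25. Exons of *Psmb8* overlap those of *Gm20496* on the other strand, with the same limit on reads as for *Irf7*. *Gbp2* changed by 0.26 ± 0.12 in ECs, where it scored 1301 to 1640 and then 1553 to 2063, and the difference from MΦs was 1.38 ± 0.34 (adjusted p = 0.0441). It was called in 9 of the 26 alternatives, and its adjusted p ran from 0.00801 to 0.127. Its call was lost without any 1 of the 4 No Dox EC samples, without 1wk WD EC replicate 3, 4, or 5, without MΦ No Dox replicate 2 or 4, and without MΦ 1wk WD replicate 2, 3, or 4, at log2 differences of 1.20 to 1.45 (adjusted p = 0.0577 to 0.1004). *Isg15* had a larger difference of 2.23 ± 0.67 that was not called (adjusted p = 0.0852), and *Irf7* one of 1.22 ± 0.34 (adjusted p = 0.0657).

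A single EC sample, labelled replicate 4, was available here at 1wk Dox, so its values have no replicate check and no test. Against the mean of the 4 No Dox samples 25 of 38 members were lower and 13 higher, with a median log2 difference of -0.17 (all genes 0.06). It lay below all 4 No Dox samples in 18 members and above them in 4, against 26.3% and 35.9% of all 14047 genes. The sample was 2-fold or more lower in 1 member and 2-fold or more higher in 0, against 5.27% and 5.43% of all genes. The 1 member was *Socs1*, at 39 against 83 to 105. *Ifit3* scored 293 against 414 to 587, and *Rsad2* 8333 against 11937 to 14089. The 4 members above No Dox were *Bst2* (1405 against 594 to 854), *Oasl2* (6635 against 3273 to 3770), *Ifi35* (1448 against 1021 to 1352), and *Tap1*, which loads peptides for MHC class I (1576 against 1133 to 1493). Markers also stood outside the No Dox range in this sample. The EC markers summed to 636672 against 535884 to 568394, the acinar markers to 23 against 18059 to 579351, and the MΦ markers to 4718 against 5373 to 6199. Monocyte markers summed to 266 against 354 to 570, plasmacytoid dendritic cell markers to 75 against 114 to 145, and β cell markers to 388 against 396 to 2124, and their part in these values was not tested.

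In β cells no member was called at any time with limma. At 1wk Dox 36 of 38 members had a higher mean than at No Dox (median log2 difference 0.57, all genes 0.03), 0 were called (all genes 0.0122%), and 7 were higher at an unadjusted p under 0.05, against 3.54% of all 16346 genes. At 1wk WD 32 were higher (median 0.81, all genes 0.06), 0 were called (all genes 0.0%), and 6 were higher at an unadjusted p under 0.05, against 4.63%. Between 1wk WD and 1wk Dox 0 were called (all genes 0.0%), 20 of 38 were higher (median 0.02), and 0 had an unadjusted p under 0.05. Over all genes 1142, 1336, and 1032 had an unadjusted p under 0.05 in the 3 comparisons.

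The No Dox β cell samples did not resemble each other in these genes. *Ifit2* scored 6 and 3 in replicates 1 and 2 and 315 and 946 in replicates 3 and 4. It scored 426, 220, 304, 651, and 77 at 1wk Dox, then 794, 570, and 112 at 1wk WD. All 8 later samples lay above replicates 1 and 2 and below replicate 4. *Isg15* scored 3, 1, 49, and 137 at No Dox, 121, 83, 180, 137, and 56 at 1wk Dox, then 58, 129, and 4 at 1wk WD. *Xaf1*, a gene tied to interferon-driven cell death, scored 30, 18, 296, and 791, then 756, 574, 408, 1090, and 348, then 701, 1011, and 449 (1wk Dox log2 2.43 ± 0.95, adjusted p = 0.660).

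A few members were steadier. *Oas2* scored 265, 239, 197, and 196 at No Dox, 339, 636, 537, 444, and 326 at 1wk Dox, then 611, 624, and 456 at 1wk WD. Both later groups lay above No Dox, with log2 differences of 0.99 ± 0.27 (adjusted p = 0.401) and 1.32 ± 0.30 (adjusted p = 0.462), the smallest adjusted p of the members in either comparison. *Igtp* at 1wk WD (599, 809, and 340 against 230 to 338) was the other member without overlap. The share of all genes without overlap was not counted in β cells, so *Oas2* and *Igtp* are given as values only. *Ifit1* and *Usp18* scored 653 to 1292 and 707 to 1396 at No Dox and 501 to 955 and 776 to 1337 at 1wk WD, with overlap in both and 1wk WD differences of -0.25 ± 0.30 and -0.09 ± 0.33 (adjusted p = 0.805 and 0.943).

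Markers of more than 1 cell type moved with these members. For the 4 stromal markers the summed score was 285 and 149 in No Dox replicates 1 and 2 and 49175 and 141857 in replicates 3 and 4. It was 119090, 63486, 88627, 101771, and 35043 at 1wk Dox, then 172248, 146766, and 10616 at 1wk WD. The mean log2(score + 1) over the 38 members was 7.10, 6.97, 8.38, and 9.002 in the No Dox replicates, 9.08, 8.71, 8.87, 9.17, and 8.17 at 1wk Dox, then 9.42, 9.17, and 7.78 at 1wk WD. Within each time point the sample with the fewest stromal transcripts was the one with the lowest members' mean. The 7 β cell markers summed to 8588479, 5456453, 1636091, and 621603 in the No Dox replicates, to 1410458, 2905447, 1593485, 496625, and 2765537 at 1wk Dox, and to 615722, 1880290, and 10852666 after withdrawal. Within each time point the sample with the lowest β cell marker sum had the highest members' mean. The 4 acinar markers summed to 242636, 13260, 4490995, and 2725785 in the No Dox replicates. All 5 samples of 1wk Dox lay below these, at 4952, 1207, 3004, 244, and 86, and the 1wk WD samples had 186751, 39563, and 58. The 7 matched MΦ markers summed to 332 to 3776 in No Dox β cells, 657 to 2077 at 1wk Dox, then 3295 to 4210 after withdrawal. The 8 EC markers summed to 1636 to 7404, 1503 to 55274, and 4319 to 16711 in the same order. The 5 T, B, and NK cell markers and the 3 plasmacytoid dendritic cell markers were highest in the sample with the highest members' mean at both later times. They summed to 4752 and 1624 in 1wk Dox replicate 4, against 36 to 210 and 188 to 319 in the other 4, and to 2719 and 3084 in 1wk WD replicate 1, against 61 to 144 and 100 to 253 in the other 2. At No Dox both lists were highest in replicate 3, at 1006 and 431. Monocyte and conventional dendritic cell markers, 3 of each, were lowest in the sample with the lowest members' mean and highest in that with the highest, at each time. They ran from 31 to 1541 and 248 to 3856 at No Dox, and from 198 to 667 and 1084 to 3134 at 1wk Dox. At 1wk WD they ran from 326 to 1897 and 1041 to 7368. No stromal, MΦ, or EC marker was at 1 in every sample of a β cell group.

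The No Dox replicates that stood apart were left out in turn, a choice made after seeing the data. Without replicates 1 and 2, 0 members were called at either time, with median differences of 0.10 (1wk Dox) and 0.17 (1wk WD). Without replicates 3 and 4, 6 members were called higher at 1wk Dox and 7 at 1wk WD, among 1199 and 1424 genes called in all. Replicates 1 and 2 hold the lowest members' means, so a rise from them is fixed by the choice of samples and is no support for a change. The 2 pairs differ without overlap in every marker list but that of neutrophils. Replicates 3 and 4 are lower in the β cell markers and higher in the others, and the part of each list was not tested.

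**Figure D5:**
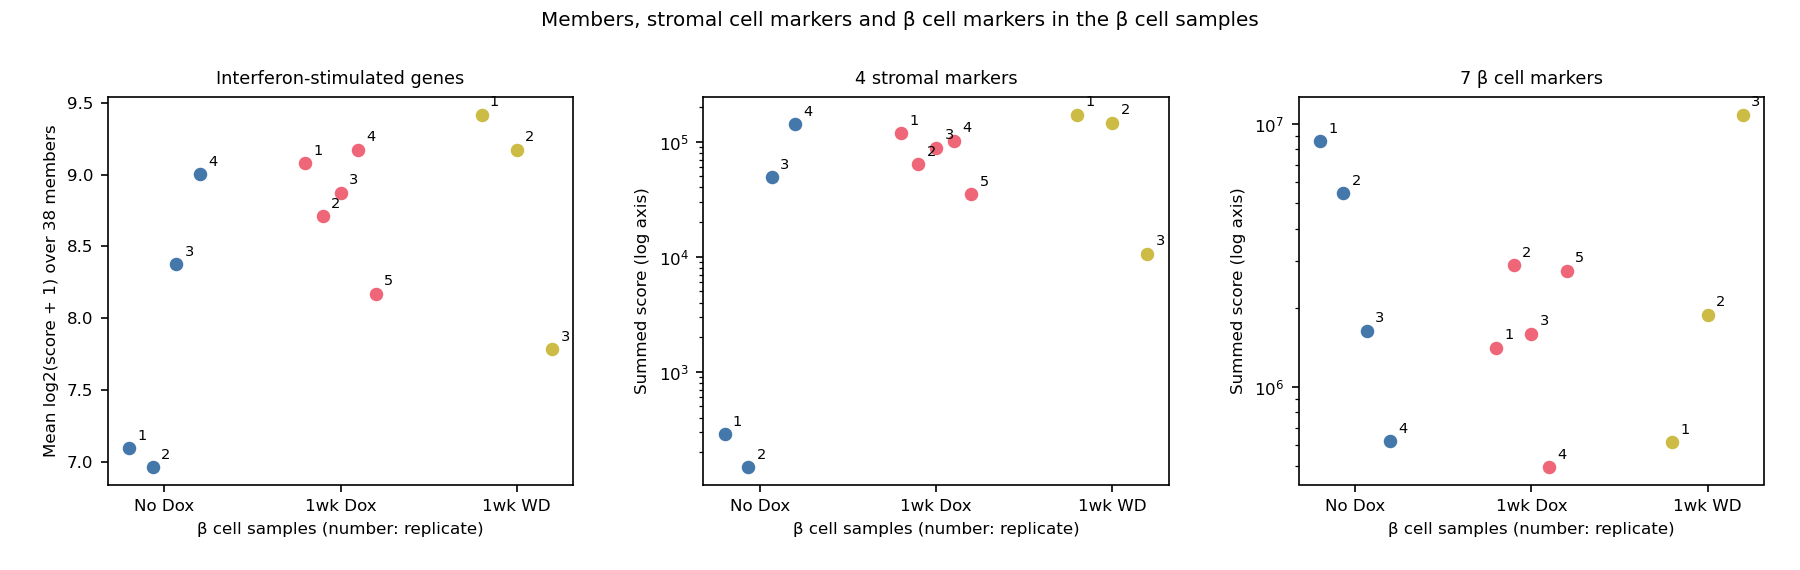
Mean log2(score + 1) over the 38 members in each β cell sample (left), and summed scores of the 4 stromal markers (middle) and 7 β cell markers (right) on log axes, by time point with replicate numbers beside the points. No Dox replicates 1 and 2 and 1wk WD replicate 3 are low in the left and middle panels and have the 3 highest β cell marker sums.

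The genes around the members in the pathway were counted from lists set apart from the members: interferons, receptors, kinases and factors, sensors and adaptors that induce interferon, and 39 further interferon-stimulated genes, 75 genes in the table in all. In MΦs at 1wk Dox 67 of these were tested, 13 were called higher and 2 lower, against 1.61% and 0.653% of all genes. At 1wk WD 5 were called higher and 1 lower, against 0.420% and 0.206%. In ECs at 1wk WD 1 of 62 was called, higher, where 1.28% of all genes were, and in β cells 0 of 64 at either time, against 0.0122% and 0.0% of all genes. These lists, like the members, were chosen with earlier results of these data known.

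Of the interferons, *Ifnb1* did not pass 2 outside MΦs. It scored 188 to 537 in No Dox MΦs, 307 and 1021 at 1wk Dox, then 142 to 1176 at 1wk WD, and it was at 1 in all EC samples. Its log2 difference from No Dox was 0.59 ± 0.76 at 1wk Dox (adjusted p = 0.711) and -0.15 ± 0.62 at 1wk WD (adjusted p = 0.924). *Ifng* scored 9 to 102 in No Dox MΦs and 24 to 201 at 1wk WD (1.33 ± 0.84, adjusted p = 0.438), and did not pass 2 in ECs.

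Of the 6 receptors in the table, 2 fell in MΦs. *Il28ra*, the receptor subunit for interferon lambda, scored 617 to 1088 in No Dox MΦs. It fell to 139 and 179 at 1wk Dox (log2 -2.55 ± 0.35, adjusted p = 0.00407), and its 1wk WD samples scored 143 to 303 (-2.16 ± 0.28, adjusted p = 0.00563). *Ifngr1*, a chain of the interferon gamma receptor, fell at 1wk Dox (-1.01 ± 0.16, adjusted p = 0.00867). *Ifnar1*, a chain of the type I receptor, differed by 0.16 ± 0.14 (adjusted p = 0.557).

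Among the further interferon-stimulated genes, 11 of 39 were called higher in MΦs at 1wk Dox (all genes 1.61%), then 5 at 1wk WD (all genes 0.420%). *Cxcl9*, a chemokine that draws T cells and is known to answer to interferon gamma, scored 1413 to 3043 at No Dox, 6528 and 7662 at 1wk Dox, then 4663 to 14455 at 1wk WD. It rose by 1.66 ± 0.37 (adjusted p = 0.0258) and 1.91 ± 0.30 (adjusted p = 0.0133) on the log2 scale, and it was the gene of these lists called in ECs, from 26 to 104 at No Dox to 97 to 274 at 1wk WD (2.17 ± 0.44, adjusted p = 0.0206). *Iigp1*, an immunity-related GTPase, rose by 2.04 ± 0.42 and 1.90 ± 0.34 in MΦs (adjusted p = 0.0205 and 0.0259), and *Ifi47* by 1.26 ± 0.16 and 1.00 ± 0.13 (adjusted p = 0.00285 and 0.00563).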

How the data were processed

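RNA of sorted β cells, ECs, and MΦs was measured by RNA-sequencing. NuGEN Ovation chemistry was used for amplification, and the authors mapped reads with TopHat2 2.0 on mm9 and quantified genes by TMM in Avadis NGS. What they deposited is a score per gene and sample, a TMM value in whole numbers that is never under 1. For the annotation, the version is not given in the sources used here. Read numbers are not recoverable from scores, and so depth, and with it the precision of low scores, is unknown. Scores of a sample summed to 23465985 to 53441769. Of 38 columns of sample values 32 were used and 6 were not used here. The symbol *Psmb9* stood on 2 rows, and the row above the lowest score was used.

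The limma package (3.58.1, R 4.3.3) was run on log2(score + 1), with empirical Bayes moderation following a mean-dependent trend. Genes had to average 20 or more in 1 of the groups fitted, and p-values were adjusted over all of these by the Benjamini-Hochberg method. Fold changes are on the log2(score + 1) scale, which understates changes of low genes. β cell and MΦ fits held 3 time points, the EC fit No Dox and 1wk WD, the cell type fit the 12 No Dox samples, and the fit of the difference MΦs and ECs at No Dox and 1wk WD. A gene was called at a fold change of 2 and an adjusted p under 0.05. Replicates are separate samples of pooled mice, and p-values measure only the spread between these samples. Coordinates in text are mm9, and those of RefSeq sequences GRCm38.p6. Exons of 10 members overlap another gene on the other strand in GENCODE M1, and counting is not stated to use strand.

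Named genes were members called in any time comparison or in the difference, plus 16 well-known members and others where a result turned on them, some chosen after their values were seen. The members and lists were chosen with earlier results of these data known. Alternatives were pseudocounts of 0.1 and 20, no minimum and a minimum of 200, median-of-ratios scaling, quantile normalization, no trend, only the 2 groups compared, the 1wk Dox EC sample added, the replicate block, and leaving out each replicate. Python 3.11.15 with pandas 2.3.3, numpy 2.4.6, and matplotlib 3.10.9 made tables and figures.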

Additional observations from a re-analysis of the deposited data

Results flagged for a closer look

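Values were flagged where 1 sample lay far from the rest of its group or where the change differed between cell types. The first rule was Dixon's test at the 95% level on the log2 scale. It covered 114 groups of samples, of which 6 were flagged and chance alone flags about 1 in 20. Only 18 named members and the mean over all members were checked in this way, not each of the 38. *Ifit2* scored 2734 in EC 1wk WD replicate 4 against 1714 to 1906 in the other 4. *Usp18* scored 957 in MΦ No Dox replicate 1 against 740 to 764, and 842 in MΦ 1wk WD replicate 2 against 1143 to 1200. *Ifi44* scored 26 in β cell 1wk Dox replicate 5 against 236 to 475. *Psmb8* scored 1595 in β cell 1wk Dox replicate 4 against 187 to 319. In that sample the 5 T, B, and NK cell markers summed to 4752 against 36 to 210 in the other 4, and the 3 plasmacytoid dendritic cell markers to 1624 against 188 to 319, and their part in the value was not tested. The mean log2(score + 1) over the members was 10.11 in EC No Dox replicate 1, below the other 3. The MΦ change minus the EC change at 1wk WD, tested as an interaction in limma, was 1.38 for *Gbp2* and 1.13 for *Psmb8* on the log2 scale.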

How the results depend on the processing

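The counts of members called between cell types at No Dox stayed within 1.5 times, and those of 0 in ECs at 1wk WD, in β cells at 1wk WD against 1wk Dox, and in MΦs at 1wk WD against 1wk Dox stayed 0, under the alternatives run. In MΦs at 1wk Dox the count of 4 became 2 with no minimum mean score and 0 with no trend, with only the 2 groups compared, and with the replicate block, and leaving out 1 replicate gave 0 to 5 (2 without 1wk WD replicate 3). In MΦs at 1wk WD the count of 1 became 2 with quantile normalization and 0 with no minimum, no trend, or the replicate block, and leaving out 1 replicate gave 0 to 2. The count of 2 for the difference between MΦs and ECs became 1 with no minimum, median-of-ratios scaling, no trend, the replicate block, or EC 1wk WD replicates 1, 2, and 5 only (added after seeing the data), and leaving out 1 replicate gave 1 to 3. The cause was not tested. Replicate numbers were not taken to pair the samples, since in no pair of groups were all correlations of same-numbered deviations above 0.1. Between No Dox ECs and MΦs they were 0.192 and 0.414 for replicates 1 and 2, each highest with its own number. For replicates 3 and 4 they were 0.062 and -0.126. Shared preparations for some samples therefore remain possible, and the main fits treated all samples as independent. With No Dox replicates 1 and 2 only, an alternative added after seeing the data, the β cell counts of 0 became 6 (1wk Dox) and 7 (1wk WD), a rise fixed by the choice of the samples lowest in these members. The 1 member past 2-fold in the lone EC sample of 1wk Dox gave a count of 0 with a pseudocount of 20, and the count was 1 to 2 on leaving out a No Dox replicate. Quantile normalization moved the median of all genes for ECs minus β cells from -0.07 to 0.17. With no depth known, differences of members near a score of 1 cannot be bounded.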
